A study of Sus scrofa with 2 samples.

Results

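Interferon-stimulated genes are the genes that cells switch on when an interferon binds its receptor, and 38 of them were followed here in single somatic cells of pig antral follicles. They were chosen by name, as rows of the deposited gene list whose symbol equals a member. Of the 38 symbols, 34 were found among 22342 genes, and IFIT3, OAS1, XAF1 and RTP4 were not found under these symbols and are not analysed here. The 34 genes cover ISG15 and the enzymes that attach or remove it, the IFIT and MX families, RNA sensors, PARP9 and its partners, 4 transcription factors, antigen processing genes and a chemokine. Their level in all cells, the tail of cells in which they are high and the order in which they are higher along that tail are described in turn.

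The 2 follicles, AF75 (labelled antral follicle 1) and AF76 (labelled antral follicle 2), were over 7 mm in diameter and came from the ovary of a 210-day-old pubertal Landrace and Yorkshire cross. The labels give natural rearing and name no hormone, while the methods of the study give 1 pig that had received pregnant mare serum gonadotropin. By the methods both follicles thus share the animal and the hormone, and the ovaries were collected at slaughter and carried on ice. The labels name no interferon treatment and no infection. Follicular fluid cells and cells stripped from cumulus-oocyte complexes were loaded on a 10x Genomics chip that reads the 3′ end of transcripts and counts molecules by unique molecular identifiers (UMIs). Each follicle made 1 library, so there is no replicate for any comparison, no test was made, and all intervals are 95% intervals that cover counting error only.

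Barcodes with 2000 to 5000 genes and under 7% mitochondrial UMIs were taken as cells, which left 9362 of 14289 barcodes in AF75 and 7843 of 15548 in AF76. A cell held from 3487 to 32958 UMIs, with medians of 11254 in AF75 and 13902 in AF76. The libraries shared 56 barcodes, of which 18 were cells in both. Levels below are UMIs per 1000000 UMIs (CPM). The cells labelled somatic carried granulosa cell markers, from 24185 to 27210 CPM in sum in the cell groups compared below, and summed leukocyte markers were at or under 33.9 CPM there. Most of the granulosa sum was INHA, at 19854 CPM in AF75 and 23176 in AF76. INHBA was at 2036 and 523 CPM, CYP11A1 at 1690 and 1679 and GJA1 at 940 and 697. CYP19A1 was at 22.4 and 31.8 CPM and FSHR at 1.80 and 2.16, and AMH had no UMI in AF75 and 1 in AF76.

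Interferons of type I act through the receptor pair IFNAR1 and IFNAR2 and the kinases JAK1 and TYK2, which activate a complex that holds STAT2 and IRF9. The complex binds a short element in promoters, the interferon-stimulated response element (ISRE), and so switches on genes whose products block viral RNA, tag proteins or present antigen. Several of these genes have a level of their own in cells that were not exposed to interferon, and some, such as IRF7 and STAT2, feed back on the pathway.

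The promoters were searched for the letters of this element, and 6 are shown, from members that hold a match and had different levels across cells. In a window from 250 bases before to 50 bases after the RefSeq start of each gene (assembly Sscrofa11.1, the assembly of the files), the letters GAAA, any 2 bases and GAAA again, on either strand, were found in 17 of 34 members (50%). The same letters were found in 700 of 19559 windows of all genes (3.58%). The letters TTC, any 3 bases and GAA, those of the gamma-activated site, were found in 4 of 34 members (11.8%) and in 7.12% of all windows. All 34 members were matched to RefSeq, IFIT5 by a synonym. The windows below are 100 bases each, 5′ to 3′ on the strand of the gene, with letters of an ISRE match in capitals.

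ISG15, chr6:63363047-63363146, plus strand, with 3 matches of which the first 2 overlap:
ISG15: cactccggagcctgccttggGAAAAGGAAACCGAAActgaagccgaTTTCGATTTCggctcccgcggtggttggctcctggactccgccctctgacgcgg
IFIT1, chr14:101237313-101237412, plus strand:
IFIT1: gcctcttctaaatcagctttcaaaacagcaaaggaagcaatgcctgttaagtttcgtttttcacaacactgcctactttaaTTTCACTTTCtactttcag
RSAD2, chr3:128897860-128897959, minus strand:
RSAD2: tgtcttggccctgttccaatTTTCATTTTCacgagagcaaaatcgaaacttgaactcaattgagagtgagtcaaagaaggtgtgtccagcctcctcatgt
USP18, chr5:70183158-70183257, plus strand:
USP18: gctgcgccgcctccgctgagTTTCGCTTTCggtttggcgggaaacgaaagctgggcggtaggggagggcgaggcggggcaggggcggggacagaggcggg
IFI6, chr6:84858063-84858162, minus strand, with 2 overlapping matches:
IFI6: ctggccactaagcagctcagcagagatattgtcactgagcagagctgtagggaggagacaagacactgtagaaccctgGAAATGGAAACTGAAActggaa
IFIT5, chr14:101254568-101254667, plus strand, with 2 matches:
IFIT5: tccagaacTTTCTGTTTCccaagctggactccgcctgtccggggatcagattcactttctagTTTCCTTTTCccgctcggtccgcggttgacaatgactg

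ISG15 and IFIT1 differed widely in level along the tail described below, RSAD2 was nearly confined to it, and IFI6 and IFIT5 were present in ordinary cells. The 6 windows were taken from members with a match, and members without one include MX1, CMPK2, STAT2 and IRF9. A match is a description of letters and not of a bound factor. The other members with a match were IFIT2, BST2, HERC5, IFIH1, EPSTI1, DTX3L, CXCL10, OAS2, IFI44L, PSMB9 and TAP1.

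Over all cells the 34 genes took 0.0651% of the UMIs in AF75 and 0.0648% in AF76, or 651 and 648 CPM. A 3′ method counts each molecule once, so levels were not divided by transcript length. IFI6, a small membrane protein that restrains cell death, was at 226 CPM in AF75 (223 to 228) and 229 in AF76 (226 to 232). ISG15, the ubiquitin-like modifier, was at 174 CPM (172 to 177) and 159 CPM (156 to 161). IFI6 and ISG15 together held 61.3% and 59.8% of all member UMIs, so a plain sum over the set is mostly a sum of these genes.

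A second tier lay between 10 and 51 CPM. EIF2AK2, the kinase PKR that stops translation on viral RNA, was at 50.8 and 47.8 CPM, and IFIT5, which binds RNA ends, was at 34.1 and 37.0. ZNFX1, an RNA sensor with a helicase domain, was at 28.5 and 27.1, IFI44L at 18.4 and 23.0, and USP18, the protease that removes ISG15 and damps the receptor, at 15.7 and 17.2. MX1, the dynamin-like antiviral GTPase, was at 11.0 and 11.11 CPM, next to UBE2L6, STAT2 and IFIH1 whose levels were from 10.3 to 12.7. Intervals of MX1 and IFIH1 overlapped in both follicles, so their order is not set by these counts.

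Lower still were EPSTI1, TAP1, DDX58, IRF7, HERC5, IFIT1, DHX58 and IFI44, between 3.35 and 10.3 CPM. IFIT1, the sensor of RNA caps that is among the strongest genes of an interferon response, was at 4.98 and 5.74 CPM. PARP9, HERC6, IRF1, DTX3L and OAS2 were between 1.24 and 2.83 CPM. The remaining 10 members, IFIT2, MX2, RSAD2, CMPK2, BST2, PARP14, CXCL10, IRF9, PSMB8 and PSMB9, were under 1 CPM in both follicles.

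IFI6 was found in 57.0% and 60.8% of cells, ISG15 in 37.0% and 37.8%, MX1 in 7.37% and 9.14% and IFIT1 in 2.91% and 3.58%. With every cell thinned to 3000 UMIs, the variance over the mean was 1.00 and 1.07 for IFIT5 and 0.98 in both follicles for STAT2. Random sampling gives a value near 1, but at such low means a value near 1 does not show that cells are equal. For DTX3L it was 0.996 and 0.994, though DTX3L was 7.21- and 3.91-fold higher in the high cells described below. The variance over the mean was 2.98 and 2.96 for IFI6, 20.4 and 7.35 for ISG15 and 3.61 and 13.9 for IFIT1. No cell type in these libraries is known to lack all of these genes, so the share of cells with a UMI from free RNA could not be measured.

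To follow the tail, each cell was given a score, the UMIs of 20 members per 10000 UMIs of the cell. The 20 are the found members of a list of ISG15 and its ligases and protease, the IFIT, MX, OAS and RNA sensor genes, RSAD2, CMPK2, IFI6, IFI44, IFI44L, EPSTI1 and CXCL10. The base, taken over the 90% of cells with the lowest score, was 3.06 in AF75 and 3.29 in AF76. No UMI of the 20 genes was found in 13.3% and 10.3% of cells. A high cell was set as a cell at 5 times the base or more with at least 10 UMIs of the 20 genes.

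High cells were 638 in AF75, or 6.81% of cells (6.31 to 7.34), and 504 in AF76, or 6.43% (5.89 to 6.99). The distribution had no gap at that line, with 270 and 192 cells between 4 and 5 times the base and 193 and 162 between 5 and 6 times, so a high cell is a range of the score and not a type of cell. From 10 to 20 times the base there were 114 and 77 cells, from 20 to 50 times 27 and 23, and at 50 times or more 9 and 1. The highest cell of AF75 was at 246 times and that of AF76 at 122 times the base. Cells at 20 times or more were 0.385% (0.269 to 0.532) and 0.306% (0.196 to 0.455) of cells, and the intervals of the follicles overlapped.

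**Figure D1:**
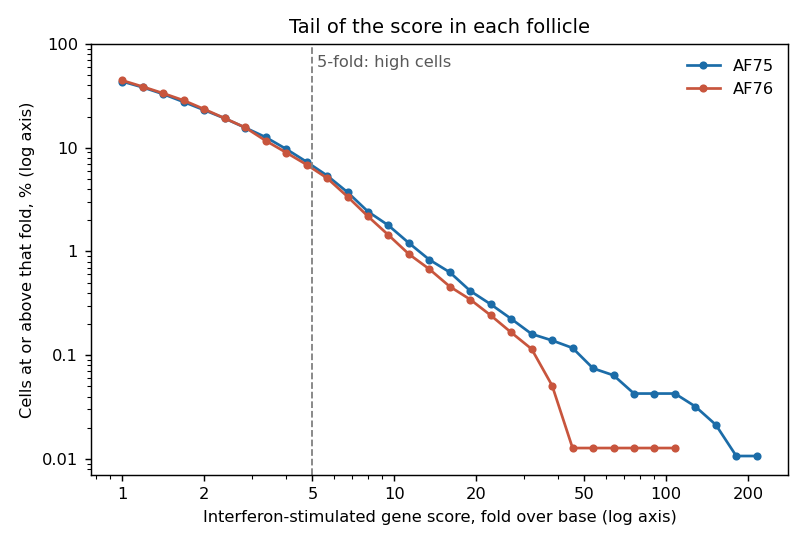
Percent of cells (y axis, log) at or above each fold of the score over base (x axis, log) in AF75 and AF76, with a dashed line at 5-fold. The curves run together down to about 0.3% of cells, after which AF75 has 9 cells and AF76 has 1 cell at 50-fold or more.

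The high cells held 39.8% of the UMIs of the 20 genes in AF75 and 34.2% in AF76, and the 9 cells at 50 times or more held 6.61% in AF75. As these UMIs chose the cells, a share above their share of cells was fixed by the choice. High cells were not deeper, with medians of 10989 UMIs against 11283 in the other cells of AF75 and 13385 against 13927 in AF76. Their mitochondrial share was also close, at 2.26% against 2.60% and 2.79% against 2.97%. With cells split by depth into 3 equal groups, 7.43% and 7.53% were high in the shallowest group and 6.44% and 5.82% in the deepest. The median high cell had a UMI of 6 members in AF75 and 7 in AF76, where the median other cell had 3 in both, and with all cells thinned to 3000 UMIs the medians were 3 and 1 in both follicles. The genes of the score are among these members, so this too follows in part from the choice.

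The levels of each member in the high cells were then set against the other cells. For a gene of the score the high cells were chosen again without that gene, so a difference is carried by the other genes and not by its own count. Among 22 members of AF75 whose level in the other cells let 10 UMIs be expected in the high cells, 12 were at least 4-fold higher there, while 0.147% of all genes of that kind were. In AF76 the count was 11 of 23, beside 0.129% of genes. The same 11 genes were past 4-fold in both, namely ISG15, IFIT1, MX1, HERC5, HERC6, USP18, DDX58, DHX58, EPSTI1, PARP9 and IFI44, and TAP1 was the 12th in AF75. When genes that passed only through their UMIs in the high cells were added, the counts were 20 of 31 (background 0.364%) and 16 of 29 (background 0.621%), but such genes had to be high there. The median fold of the members that passed at the level of the other cells was 4.07 and 3.91, beside 0.990 and 0.980 over all such genes.

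**Figure D2:**
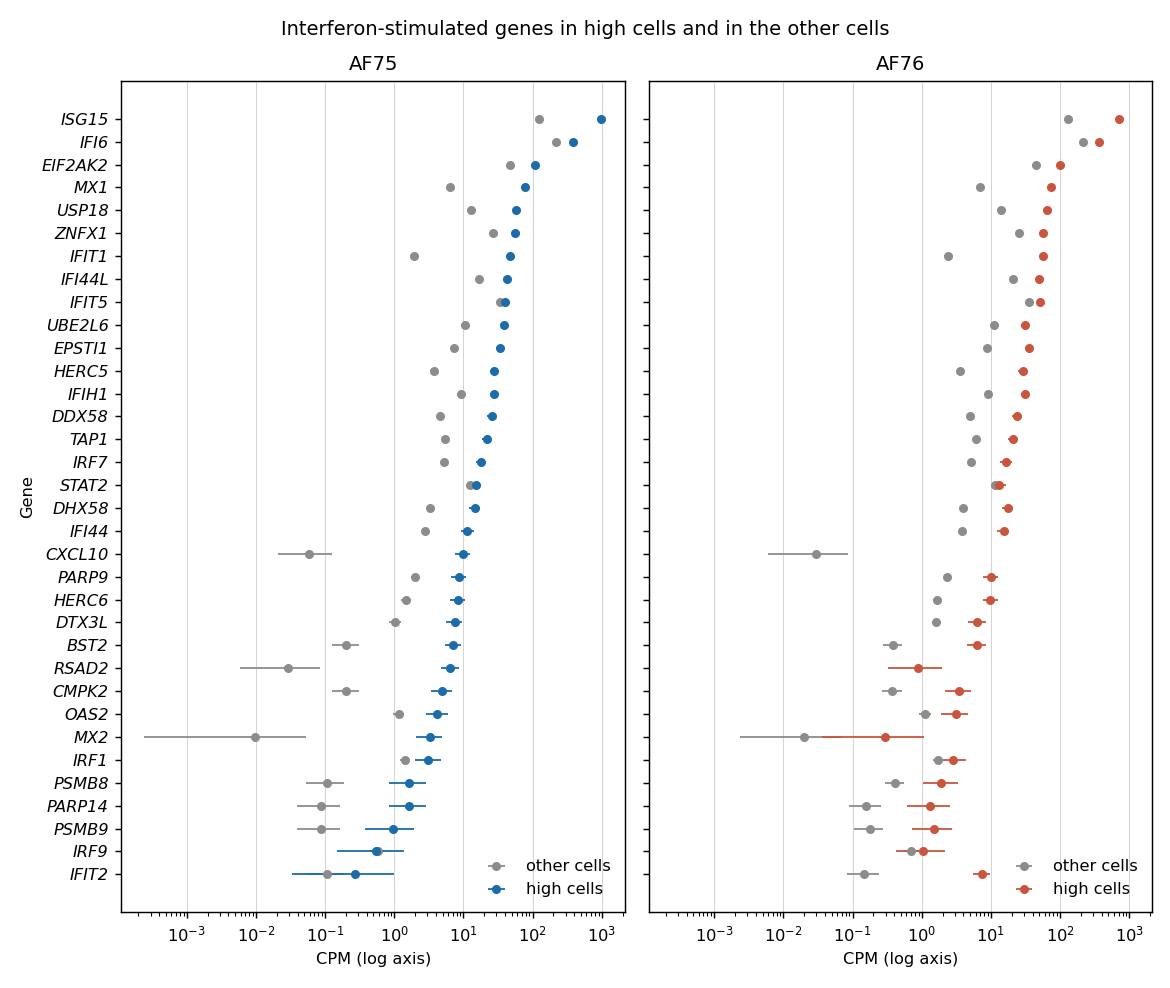
Level of each of the 34 genes (y axis) in CPM (x axis, log) in the high cells (coloured points) and the other cells (grey points) of AF75 and AF76, with 95% Poisson intervals; a group without a UMI has no point. The gap between points is widest for the genes near 0 in other cells and for IFIT1 and MX1, and narrow for IFIT5 and STAT2.

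In the ISG15 system the modifier itself was at 985 CPM in the high cells of AF75 and 122 in the others, a fold of 8.07 (7.83 to 8.32), and at 721 against 131 in AF76, a fold of 5.52 (5.32 to 5.72). HERC5, the ligase that attaches ISG15 to proteins being made, was at 28.1 against 3.70 CPM in AF75 (7.59-fold) and 28.9 against 3.59 in AF76 (8.05-fold). HERC6, its neighbour at a distance of 3783 bases, was at 8.29 against 1.47 and 9.83 against 1.67 CPM, folds of 5.66 and 5.88. USP18, which takes ISG15 off again, was at 58.1 against 12.7 CPM (4.55-fold) and 64.0 against 14.1 (4.53-fold). UBE2L6, the conjugating enzyme, was 3.72-fold higher in AF75 and 2.81-fold in AF76. Modifier, conjugating enzyme, ligases and protease were thus all higher in the high cells of both follicles. These are sums over groups of cells, chosen again for each gene of the score, and do not show the genes together in single cells. HERC5 had a UMI in 16.3% and 21.4% of its high cells.

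The IFIT family was not uniform. IFIT1 was at 47.4 CPM in the high cells against 1.94 in the others in AF75, a fold of 24.5 (20.5 to 29.3), and at 56.7 against 2.37 in AF76, a fold of 23.9 (20.3 to 28.2). In AF76 1 cell held 246 of the 383 IFIT1 UMIs of the high cells, and without it the fold was 8.59 (6.91 to 10.6). IFIT5, which lies 5332 bases from IFIT1 on the same strand, was at 40.3 against 33.6 CPM (1.20-fold, 1.07 to 1.34) and 50.6 against 36.0 (1.41-fold, 1.26 to 1.56). IFIT1 thus had the larger range over cells, while IFIT5 had the higher level in the other cells. IFIT2 had 2 UMIs in the high cells and 11 in the others of AF75, a ratio of 2.55 with an interval from 0.275 to 11.7. In AF76 it was 50.6-fold higher (28.0 to 97.0), and this rested on 1 cell.

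MX1 was at 76.3 against 6.31 CPM in AF75, a fold of 12.1 (10.8 to 13.6), and at 75.0 against 6.94 in AF76, a fold of 10.8 (9.61 to 12.1). It was found in 32.5% and 37.4% of high cells and in 5.54% and 7.24% of the others. MX2, the neighbouring GTPase that blocks retroviruses at the nucleus, had 25 UMIs in AF75 and 4 in AF76.

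RSAD2, or viperin, makes a chain-terminating nucleotide, and CMPK2, 5586 bases away on the other strand, is a nucleotide kinase. CMPK2 was at 4.86 against 0.202 CPM in AF75 (24.0-fold, 13.7 to 43.3) and at 3.41 against 0.372 in AF76 (9.18-fold, 5.22 to 15.8). RSAD2 had 48 of 51 UMIs in the high cells of AF75, and all 6 UMIs of AF76 were in 1 high cell. Although they are neighbours, CMPK2 UMIs were in 53 and 56 cells and RSAD2 UMIs in 9 and 1.

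The RNA sensors had smaller folds. DDX58, or RIG-I, was at 25.6 against 4.61 CPM (5.54-fold) in AF75 and 24.0 against 4.96 (4.84-fold) in AF76. DHX58, or LGP2, was 4.37- and 4.50-fold higher, and IFIH1, or MDA5, 2.96- and 3.49-fold. EIF2AK2 had the highest level of the RNA-binding effectors, at 107 and 100.1 CPM in the high cells, and was 2.29- and 2.26-fold higher there. OAS2, which makes the messenger that activates RNase L, was at 4.16 against 1.16 CPM and 3.10 against 1.12.

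PARP9 and DTX3L, whose products form a complex, were at 8.51 against 2.00 CPM (4.25-fold) and 7.43 against 1.03 (7.21-fold) in AF75. In AF76 they were at 9.95 against 2.36 CPM (4.22-fold) and 6.39 against 1.63 (3.91-fold). PARP14 had 12 UMIs in the high cells of AF75 and 9 in those of AF76. The genes of PARP9 and DTX3L overlap on opposite strands, and whether the counting used strand is not given in the sources used here, so their counts could be shared. The same holds for ISG15, IFIT1, IFIT2, DDX58, CXCL10, STAT2 and IRF1, each of which overlaps a gene on the other strand.

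Among the transcription factors IRF7, which drives the later interferon genes, was at 18.0 against 5.15 CPM (3.49-fold) and 16.5 against 5.13 (3.21-fold). IRF1 was 2.19-fold (1.35 to 3.42) and 1.67-fold (0.980 to 2.68) higher. STAT2 was at 15.1 against 12.5 CPM in AF75, a ratio of 1.21 (0.991 to 1.47), and at 13.2 against 11.4 in AF76, a ratio of 1.16 (0.921 to 1.43). IRF9 had 4 and 7 UMIs in the high cells, with ratios of 0.935 (0.247 to 2.52) and 1.496 (0.581 to 3.25). No difference was detectable at this depth for STAT2 and IRF9, the partners of the complex that starts the response, while IRF7 was past 3-fold.

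Of the other antiviral genes BST2, or tetherin, was at 7.16 against 0.202 CPM (35.4-fold, 21.0 to 61.8) in AF75 and 6.24 against 0.382 (16.3-fold, 10.3 to 26.0) in AF76. EPSTI1 was 4.51- and 4.03-fold, IFI44 4.12- and 4.04-fold, IFI44L 2.61- and 2.36-fold and ZNFX1 2.08- and 2.23-fold higher. IFI6, the most abundant member, was at 383 against 215 CPM in AF75 and 362 against 217 in AF76, folds of 1.78 (1.71 to 1.85) and 1.67 (1.60 to 1.73). TAP1, the peptide transporter of antigen processing, was 4.01- and 3.40-fold higher. PSMB8 and PSMB9, subunits of the immunoproteasome, had 12 and 7 UMIs in the high cells of AF75 and 13 and 10 in AF76. Without cells that carry leukocyte markers the PSMB8 ratio in AF76 was 2.91 (0.873 to 7.71) rather than 4.70.

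Single cells weighed on the rarest genes. In AF75, 24 of 25 MX2 UMIs and 36 of 51 RSAD2 UMIs were in the cell with the highest score, which also had 913 ISG15, 112 IFIT1 and 101 IFI6 UMIs of its 17150 UMIs. In AF76, 49 of 65 IFIT2 UMIs and 6 of 6 RSAD2 UMIs were in the cell with the highest score, which had 246 IFIT1 and 283 ISG15 UMIs. For CXCL10, the chemokine that draws T cells, 72 of 78 UMIs of AF75 were in 1 cell, while AF76 had 3 UMIs in all. Of these 3 cells the CXCL10 cell had 1 UMI of a leukocyte marker and the others none, and all had between 465 and 733 UMIs of granulosa markers.

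With those 3 cells left out, IFIT1 was 16.4-fold higher (13.5 to 19.9) in the high cells of AF75, ISG15 6.94- and 5.12-fold, and IFIT2 in AF76 had a ratio of 1.01 (0.0240 to 6.57). CXCL10 then had no UMI in high cells. By the filter that gave 20 and 16 (backgrounds 0.364% and 0.621%), members at 4-fold or more were 14 in AF75 and 12 in AF76 without these cells. When ISG15 was left out of the score they were 13 and 9, and without the cells that carry leukocyte markers they were 18 and 14. That filter also lets in members through their UMIs in high cells alone. The share of all genes past 4-fold was not computed for these settings.

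**Figure D3:**
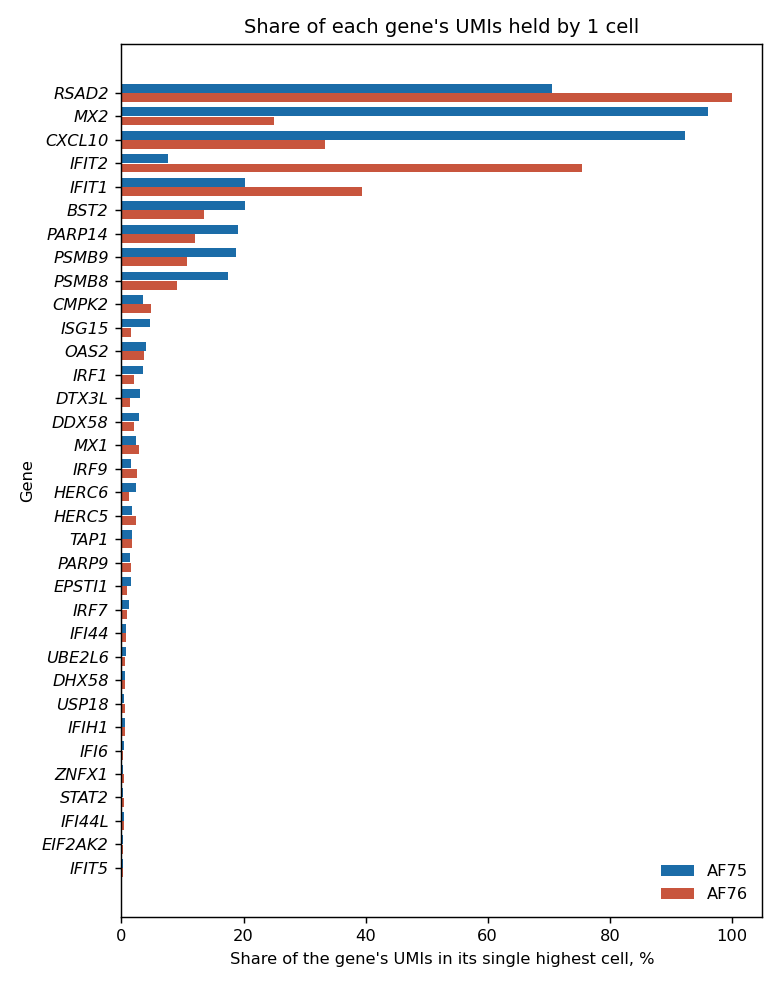
Share of each gene's UMIs that lay in its single highest cell (x axis, percent) for the 34 genes (y axis) in AF75 and AF76. RSAD2, MX2, CXCL10 and IFIT2 reach from 70.6% to 100% in at least 1 follicle, while IFI6, IFIT5 and STAT2 are near 0.

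Which genes came up where was read from ranges of the score, with the described gene left out of the score. This is an order over levels in cells taken at 1 time and not an order in time. A gene was taken to reach a range when its level was 3-fold that of cells under 2 times the base with intervals that did not meet. In the range of 2 to 5 times the base ISG15 and MX1 had reached it in both follicles, and CMPK2 in AF75. ISG15 went from 88.6 CPM under 2 times to 271, 467, 1909, 9625 and 47929 CPM in the 5 ranges above it in AF75. In AF76 it went from 88.8 to 304, 579, 1081, 4361 and 15460 CPM. The last ISG15 value rests on 2 cells in AF75 and on 1 cell with 283 ISG15 UMIs in AF76. The 4361 CPM before it in AF76 rests on 4 cells. MX1 went from 4.19 to 16.2, 39.9, 89.8, 406 and 951 CPM in AF75 and from 4.70 to 17.0, 53.1, 127, 212 and 1857 CPM in AF76. The 1857 CPM of MX1 is 34 UMIs in that same AF76 cell.

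In the range of 5 to 10 times, a further 12 members in AF75 and 17 in AF76 had reached the line. The share of all genes that did so was not computed. The members reached by that range in both were ISG15, MX1, CMPK2, IFIT1, BST2, HERC5, HERC6, DDX58, DHX58, EPSTI1, PARP9, DTX3L, USP18, IFI44 and PSMB8. The 10 to 20 range added 10 and 5, among them EIF2AK2, UBE2L6, IFI44L and TAP1 in both. At 50 times or more IFI6, IFIT5, STAT2 and IFIT2 were reached in both follicles. For IFIT5, STAT2 and IFIT2 that range was 1 cell in AF76, with 10, 5 and 49 UMIs, and IFIT2 rested on 1 UMI in AF75. IFI6 went from 202 CPM in the lowest range of AF75 to 419 at 20 to 50 times and 1596 at 50 times or more, and from 208 to 473 and 965 CPM in AF76. STAT2 was between 11.2 and 20.8 CPM in all ranges under 20 times the base in both follicles.

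Genes also differed in how much of their top level was present midway. The level at 5 to 20 times the base as a percent of that at 20 times or more could be given for 18 members with at least 10 UMIs in the top range of each follicle. It was 47.9% and 59.6% for IFI6, 46.1% and 51.1% for EIF2AK2, 26.9% and 39.2% for USP18, 9.0% and 20.8% for MX1, 3.4% and 7.6% for ISG15 and 2.4% and 1.9% for IFIT1. Over these 18 genes the order in AF75 and AF76 had a Spearman coefficient of 0.957, a description over genes that share cells and libraries. With the level under 2 times the base subtracted first, the coefficient was 0.874, EIF2AK2 was at 33.4% and 38.6%, IFI6 at 26.0% and 36.6% and IFIT1 at 2.19% and 1.70%. The place of IFIT1 rests on single cells, since 246 of its 275 UMIs in the top range of AF76 were in 1 cell. Without the 3 cells named above the unsubtracted value of IFIT1 was 4.34% and 17.1%, that of ISG15 3.88% and 14.5%, that of MX1 9.66% and 30.2% and that of IFI6 52.5% and 64.2%. Each gene of the score was left out of it, so the top range was 8 and 5 cells for ISG15 and 122 and 74 for IFI6. For MX1 and IFIT1 it was 36 and 24 cells. The percents and their order therefore compare genes over unlike sets of cells. In AF76 1 cell held 283 of the 423 ISG15 UMIs of the top range. ISG15 was past the 3-fold line in the range of 2 to 5 times the base, and its level midway was far below that of these few top cells.

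**Figure D4:**
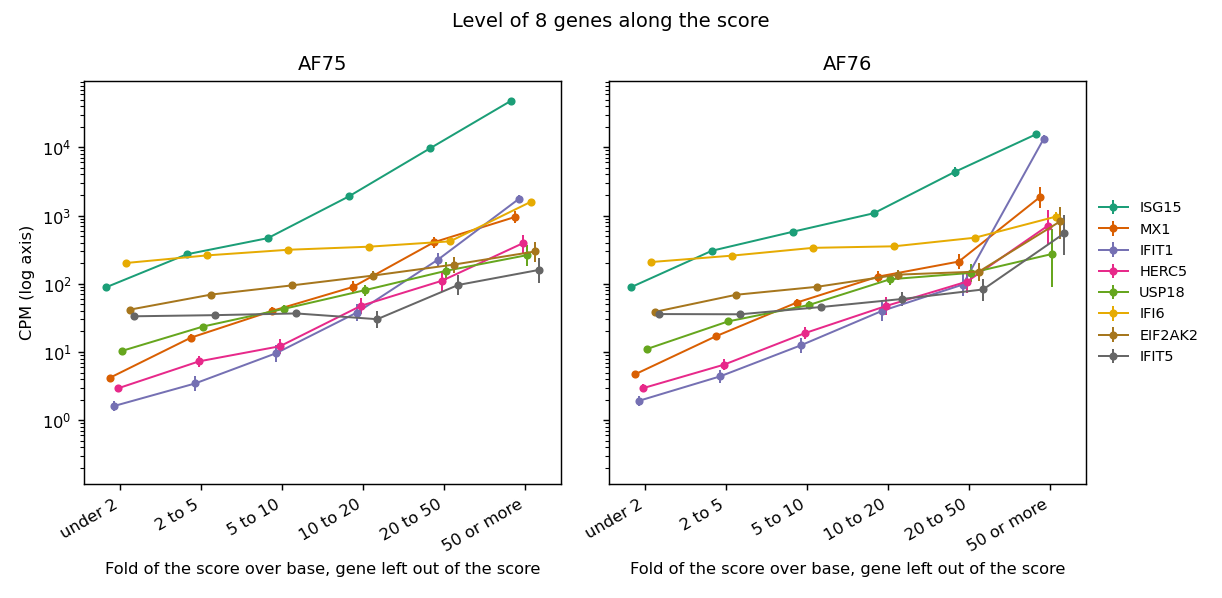
Level of 8 genes in CPM (y axis, log) in 6 ranges of the score over base (x axis), with the gene left out of the score and 95% Poisson intervals, in AF75 and AF76. ISG15, MX1 and IFIT1 climb through every range, while from under 2 times to 10 to 20 times the base IFI6 goes from 202 to 350 CPM and from 208 to 354, and IFIT5 from 33.4 to 30.2 and from 36.0 to 59.8. With all genes of the score, AF76 had 1 cell at 50 times or more. The last points of ISG15, MX1, IFIT5 and EIF2AK2 in AF76 are 1 cell. For IFIT1 in AF76, 1 cell held 246 of the 275 UMIs at 20 times or more.

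IFI6 and IFIT5 were also read against ISG15 alone, without the score. In cells thinned to 3000 UMIs the mean of IFI6 was 0.585 UMIs where ISG15 had none and 1.46 where ISG15 had 6 or more in AF75, and 0.635 and 1.38 in AF76, while IFIT5 went from 0.0992 to 0.144 and from 0.106 to 0.192.

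The far tail was also read by which members had a UMI in a cell. Of members outside the score, UBE2L6 was in 29 of the 36 cells of AF75 at 20 times the base or more and in 17 of the 24 of AF76, EIF2AK2 in 25 and 21, ZNFX1 in 24 and 9, TAP1 in 20 and 10 and BST2 in 11 and 7. For members of the score the cells were chosen again without the gene. MX1 was then in 77.8% of 36 cells and 83.3% of 24, IFIT1 in 55.6% and 45.8% of as many cells, and RSAD2 in 13.9% and 4.17%. Left out of the score, ISG15 leaves 8 cells in AF75, all with a UMI of it, and 5 in AF76, of which 60.0% had one. IFI6 leaves 122 and 74 cells, of which 68.9% and 74.3% had it. Many cells of the far tail thus had no IFIT1 UMI, at a median depth of 10875 and 11846 UMIs in the cells chosen with all genes of the score. Of the 9 cells of AF75 with RSAD2, 7 had ISG15 and 5 had IFIT1, where 37.0% and 2.91% of all cells had them.

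Between the follicles the genes were alike in most cases. Of 31 members with at least 50 UMIs in 1 follicle, 4 were at least 1.5-fold apart, beside 8.85% of 11617 genes, 3.69% higher in AF76 and 5.16% higher in AF75. The median size of the log2 ratio was 0.13 over the members and 0.13 over all genes. With its sign, the median log2 ratio of AF76 to AF75 was 0.118 over the members and 8.1e-05 over all genes. Of the 31 members 21 were higher in AF76, and the share of all genes that were was not computed. The 4 past 1.5-fold were IFIT2 at 0.117 and 0.597 CPM in AF75 and AF76, PSMB8 at 0.207 and 0.505, RSAD2 at 0.459 and 0.0551 and CXCL10 at 0.701 and 0.0275. IFIT2 and PSMB8 were higher in AF76, by 5.11-fold (2.79 to 10.1) and 2.44-fold (1.48 to 4.16), and RSAD2 and CXCL10 had ratios of 0.120 (0.0421 to 0.280) and 0.0393 (0.00793 to 0.119).

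All 4 are rare genes that single cells or leukocyte-marked cells weigh on. Without the 3 cells named above the ratio of IFIT2 was 1.36 (0.604 to 3.15) and that of CXCL10 0.510 (0.0826 to 2.39), RSAD2 had 15 UMIs in AF75 and none in AF76, and 1 member was past 1.5-fold. PSMB8 had a ratio of 1.67 (0.913 to 3.12) without the cells with leukocyte markers. For abundant members the difference was small. ISG15 had a ratio of 0.911 (0.892 to 0.930), IFI44L of 1.25 (1.18 to 1.33), IFI44 of 1.34 (1.17 to 1.53), MX1 of 1.01 (0.936 to 1.099) and IFI6 of 1.01 (0.996 to 1.03). In 16 of the 31 the counting interval left out 1, but with 1 library each the spread between follicles is not known. The share of all genes whose interval left out 1 was not computed.

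**Figure D5:**
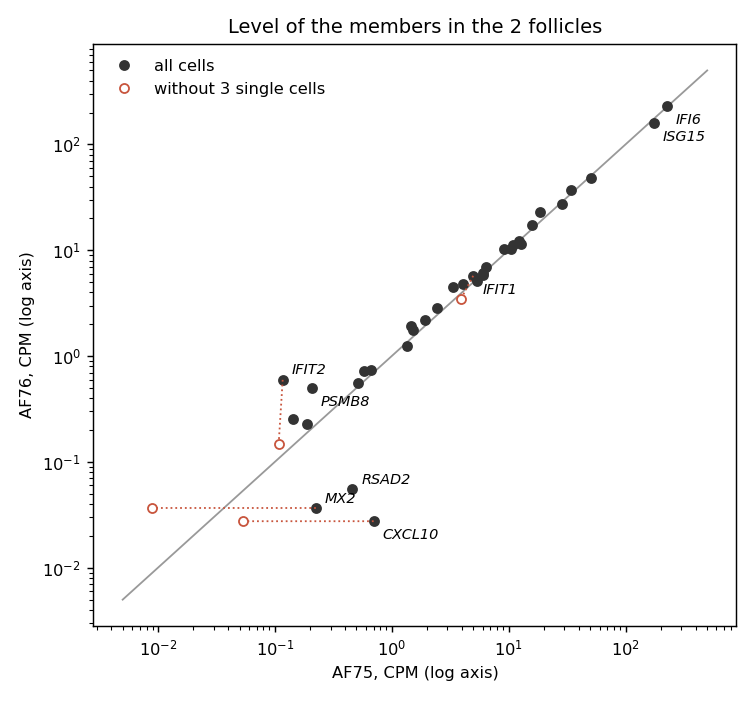
Level of each member in AF75 (x axis) and AF76 (y axis), both in CPM on log axes, with the line of equal levels; open points show IFIT2, CXCL10, MX2 and IFIT1 without 3 single cells. Most genes lie near the line, and with the 3 cells left out the ratio of AF76 to AF75 is 1.36 for IFIT2 and 0.510 for CXCL10.

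Other genes of the pathway, from lists made by function, were read in the same high cells. Of the interferons themselves 6 of 12 names were found, and IFNB1 and IFNK had no UMI in either follicle. IFNG had none in AF75. IFNE, an epithelial type I interferon of the reproductive tract, was at 7.24 CPM in AF75 and 6.74 in AF76, and in high against other cells at 6.08 against 7.32 and 6.53 against 6.75. The receptor chains IFNAR1 (132 and 134 CPM), IFNGR1, IFNGR2 and IL10RB were present, with none of 4 tested past 4-fold in either follicle and ratios from 0.89 to 1.02. Of 10 signalling genes none was past 4-fold, and JAK1, a kinase bound to the receptors, was at 352 against 335 CPM in AF75 (1.05-fold) and 389 against 344 in AF76 (1.13-fold). None of 9 and 7 tested sensing genes was past 4-fold.

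Other known interferon-stimulated genes outside the 38 were past 4-fold in 4 of 25 tested in AF75 and 2 of 24 in AF76, where the background of all genes was 0.364% and 0.621%. Of these, TNFSF10, DDX60, CCL5 and SAMD9 had levels in the other cells too low to be tested by, and passed the filter through their UMIs in high cells, so they had to be high there. TNFSF10, the death ligand TRAIL, had 19 and 27 UMIs in high cells. IFITM3, which blocks viral fusion, was at 79.4 against 16.3 CPM in AF75 (4.87-fold) and 75.3 against 23.5 in AF76 (3.20-fold). LGALS3BP was 2.21- and 2.10-fold, PARP12 3.48- and 3.45-fold and TRIM25 2.53- and 2.43-fold higher. In the class I presentation list none of 6 was past 4-fold, and B2M, the light chain of class I, was at 497 against 222 CPM (2.24-fold) and 548 against 231 (2.37-fold). Outside all of these lists, ISG12(A), an interferon-stimulated gene of the IFI27 family, was the single gene at 50 CPM or more in high cells that was past 4-fold in both, at 339 against 73.2 CPM (4.64-fold) and 329.7 against 74.5 (4.43-fold).

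Markers of other cells were read beside these results. Summed leukocyte markers were at 10.3 CPM in the high cells and 4.19 in the others of AF75 and at 33.9 and 7.75 in AF76. In AF76 6 of 8 tested markers were past 4-fold, beside 0.621% of all genes. These 6 passed the filter only through their UMIs in high cells, so they had to be high there. AIF1 and CD68, the others tested in AF76, were 2.48- and 1.81-fold higher. In cells at 20 times the base or more the summed leukocyte markers were at 4.85 and 9.49 CPM. Cells with at least 10 UMIs of 3 or more leukocyte markers were 1 in AF75 and 10 in AF76, of which 1 and 3 were high. Those of AF76 had 738 CPM of IFI6 and 47.3 of ISG15. Summed granulosa markers were at 24185 against 24569 CPM and 27210 against 26037. INSL3, which made up most of the theca and stroma list, was at 429 against 298 CPM in AF75 (1.44-fold) and 815 against 475 in AF76 (1.71-fold), and CYP17A1 was at or under 1.63 CPM in every group. Endothelial markers were at 17.3 against 17.2 and 11.0 against 12.7 CPM in sum, red cell markers at 1.22 against 2.58 and 7.57 against 48.3, and oocyte markers at 5.00 against 4.95 and 5.50 against 5.15, with none past 4-fold. Without the leukocyte-marked cells 6.80% and 6.42% of cells were high, and the part of the other markers in the member levels was not tested.

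High cells were found in each of the granulosa states that simple marker limits, set after the data were seen, can separate. Among 415 and 112 cells with cell division markers 6.02% (3.94 to 8.76) and 4.46% (1.47 to 10.1) were high. Among 2263 cells of AF75 with markers such as VCAN and ARPP21, 7.69% (6.62 to 8.86) were high and MX1 was at 17.6 CPM, against 6.53% (5.96 to 7.14) and 8.83 CPM in 6904 cells with none of the markers. In AF76 56 cells carried those markers, of which 3.57% (0.435 to 12.3) were high, beside 6.42% of cells with no markers, and MX1 was at 10.3 against 10.9 CPM. In AF76, 227 cells carried at least 2 of CEMIP, CCDC80 and DEFB1, and 7.05% (4.08 to 11.2) of them were high. In these cells ISG15 was at 57.0 CPM, IFI6 at 341 and MX1 at 27.6, where the cells of AF76 with no such markers had 162, 229 and 10.9. Thus ISG15 was lower and IFI6 and MX1 were higher in the CEMIP-marked cells, each with intervals of counting error that did not meet. The variance over the mean in AF76 was 7.35 for ISG15 and 2.96 for IFI6, so such intervals are too narrow for the spread between cells. The median depth was 7173 UMIs in the CEMIP-marked cells and 13952 in the cells with no markers. The part of depth was not tested.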

How the data were processed

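Somatic cells of 2 pig follicles, with 1 library per follicle, were measured by 10x Genomics 3′ single-cell RNA sequencing. The authors made the deposited UMI count per gene and barcode with Cell Ranger on Sscrofa11.1, and no normalization was applied. Libraries held 125409747 and 127414267 UMIs, so a member at 1 CPM rests on somewhat over 100 UMIs in a follicle and intervals cover counting error only. Names of follicles come from the names of the deposited data.

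Cells were barcodes with 2000 to 5000 genes and under 7% mitochondrial UMIs. The study removed doublets. This was not done here, and the 6.9% of cells with the most UMIs were left out as an alternative. UMIs were summed over cells and given per 1000000 (CPM), with exact Poisson intervals, Clopper-Pearson intervals for shares and exact conditional intervals for ratios, all at 95%. Members named in full were those with the highest level and fold in high cells in each role, and those past 1.5-fold between follicles. Genes were read for the 4-fold line at 10 UMIs in high cells, measured or expected. A fold over all genes and the score were tested on simulated data. Promoters were read from the RefSeq genome and annotation of the same assembly. Alternatives were other cell limits, scores, lines, library sizes and minimum counts. A gene of the signalling list is not reported here by name. The members and the lists were chosen with earlier results of these data known. Python 3.11.15, numpy 2.4.6, scipy 1.17.1, pandas 2.3.3 and matplotlib 3.10.9 were used.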

Additional observations from a re-analysis of the deposited data

Results flagged for a closer look

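Barcodes outside the cell limits were not used above, and high barcodes, by the same line of 5 times the base and 10 UMIs, were also found there. Among barcodes with under 2000 genes and a low mitochondrial share, 26 in AF75 and 72 in AF76 were high, which is 0.996% of 2610 and 1.11% of 6462 barcodes with median depths of 1260 and 1160 UMIs. At such depths the minimum of 10 UMIs asks for far more than 5 times the base. These shares therefore cannot be compared with those of the cells used. Over all barcodes of this kind IFIT1 was at 5.23 CPM in AF75 and 12.7 in AF76, against 4.98 and 5.74 in the cells used. Among barcodes with over 5000 genes 10 and 5 were high. Among barcodes with 7% mitochondrial UMIs or more and 2000 to 5000 genes, 6 in each follicle were high. Barcodes with under 2000 genes and 7% or more were not counted. No control sample bears on these barcodes, and the source of their UMIs was not tested.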

How the results depend on the processing

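The share of high cells, 6.81% in AF75 and 6.43% in AF76, was 5.54% and 4.37% with 500 to 6000 genes, 4.80% and 3.47% over all deposited barcodes, 6.12% and 4.86% with ISG15 left out of the score, 4.65% and 4.603% with all members in the score, 6.10% and 7.42% without IFI6 (an alternative chosen after the data were seen, as were the leaving out of leukocyte-marked cells, of 3 single cells and the subtraction of the lowest range), 13.5% and 13.1% at a 3-fold line and 1.60% and 1.29% at a 10-fold line. It was 0.331% and 0.306% where 6 or more different genes of the score were asked for in cells thinned to 3000 UMIs, for which the ranges of the score have no equivalent. The limits of 500 to 6000 genes and all deposited barcodes let in shallow barcodes. For these the minimum of 10 UMIs can ask for more than the 5-fold line, which lowers the share. Members past 4-fold in high cells, 20 and 16, were 13 and 9 without ISG15 in the score, and 10 in AF76 at a 3-fold line. The coefficient of the order, 0.957, was 0.736 without ISG15, 0.895 without IFI6, 0.897 without the 3 single cells and 0.874 after the subtraction. Members reached by the 5 to 10 range, 15 and 19, were 6 and 10 with a step of 5-fold. Members past 1.5-fold between follicles, 4, were 2 without the deepest 6.9% of cells, 1 without high cells, 0 in thinned cells and 1 without the 3 single cells. For these counts of members the share of all genes was not computed under the alternatives. The fold of PSMB8 in AF76 was reversed, at -1.15 on the log2 scale, without IFI6 in the score. Summed member levels, 651 and 648 CPM, were 662 and 656 with 500 to 6000 genes, 656 and 658 over all barcodes, 656 in AF75 without the deepest cells, 743 and 749 with mitochondrial and ribosomal protein genes out of the library size, 664 in AF76 as a mean of cells, 453 and 480 without high cells, 646 and 665 in thinned cells and 638 and 640.4 without the 3 single cells. Causes were not tested, beyond fewer cells or other genes in the score. Of 1314 values of single genes under the alternatives, 1032 lay within the interval of their main value, 281 lay outside it and 1 was reversed. Only values past the 4-fold or 1.5-fold line were read for reversal, so other changes of direction are among the 1032 and 281. For example, the IFIT1 ratio of AF76 to AF75 was 1.15, and 0.8875 without the 3 single cells. No paired analysis was possible because each follicle made 1 library. Depth limits IFIT2, MX2, RSAD2, CXCL10, PARP14, PSMB8 and PSMB9 most.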

Other observations

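HES4, a transcriptional repressor of the Hes family that is no member, lies 6511 bases from ISG15 on the opposite strand and was chosen after its values were seen. High cells held 11 of its UMIs in AF75 and 16 in AF76, where the other cells were at 0.0385 and 0.0196 CPM. At those levels HES4 passed the filter only through its UMIs in high cells, so it had to be high there.

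Below 50 CPM, CCL5, a chemokine of T cells, had 29 UMIs in high cells of AF75 and 1 in AF76, and MARCO, a scavenger receptor of macrophages, had 2 in AF75 and 49 in AF76. Both passed the filter through their UMIs in high cells as well.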
